A study of Rattus norvegicus with 9 samples.

Results

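Histone genes were followed in cultured horizontal basal cells of the olfactory epithelium, a reserve of stem cells, before and after exposure to PMA (phorbol 12-myristate 13-acetate, a phorbol ester that activates protein kinase C). All gene symbols starting with Hist1h to Hist4h, H1f, H2af or H3f were taken, which gave 35 of the 17315 genes in the count tables. Of these, 24 were Hist genes, which lie in the histone gene clusters, and 11 were variant genes outside them. The cells were rat, strain SD, grown from a primary dissociation of olfactory epithelium to passage 7. The groups were vehicle (0.1% DMSO, labelled time 0), 50 nM PMA for 6 h and 50 nM PMA for 12 h, with 3 RNA-seq libraries each. The sources used here do not give age, sex or the number of animals, nor do they say whether libraries came from separate cultures, so p-values measure the spread between these libraries, which may be technical. No vehicle library was made at 6 h or 12 h in the samples used here, so PMA and time in culture cannot be told apart.

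Histones are the proteins around which DNA is wound: H2A, H2B, H3 and H4 form the core of the nucleosome, and H1 binds the linker DNA. The clustered genes are mostly replication-dependent. They lack introns, are transcribed at a high rate in S phase, and their mRNAs end in a stem-loop bound by SLBP in place of a poly(A) tail, although a number of them can also give polyadenylated transcripts outside S phase. Most variant genes are transcribed throughout the cell cycle into polyadenylated mRNAs, and a number of their proteins are placed by dedicated chaperones. The sources used here do not say whether the libraries were selected for poly(A), and a library selected in that way would hold few stem-loop mRNAs. Near-identical copies of clustered genes share sequence, and multimapping reads were not assigned to any gene, so the copies listed here can lose reads.

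Libraries held 13601635 to 19001819 reads in genes, and multimapping reads made up 5.95% to 7.74% of all reads. The basal cell markers Krt5, Krt14, Tp63, Icam1 and Itga6 were present in every library, with Krt5 at a mean of 6827 CPM (the read count relative to the TMM-scaled library total) in vehicle, 402 CPM at 6 h and 489 CPM at 12 h. Of these 5 markers 4 were lower at each PMA time, where 39.0% of all genes were lower at 6 h and 38.2% at 12 h. Icam1 was higher, at a mean of 176 CPM at 6 h and 359 CPM at 12 h, against 143 CPM in vehicle. By the test described below, its 6 h rise did not pass under upper-quartile scaling, without scaling or without PMA 6 h replicate 2. Of the 5 neuronal lineage markers 3 had no read in any library, as did 3 of the 4 sustentacular and gland markers in the tables. The neuronal markers summed to between 0.0692 and 0.405 CPM in the 6 h libraries, 0 and 0.218 CPM in the 12 h libraries, and 0 in vehicle. Sox9 averaged 18.0 CPM in vehicle, 72.5 CPM at 6 h and 137 CPM at 12 h. Of the 5 immune markers, the lysosomal gene Cd68 averaged 19.6, 69.4 and 85.6 CPM, and the leukocyte gene Ptprc alone had no read. Csf1r, another of them, had 20 reads in vehicle, 28 at 6 h and 25 at 12 h. Of the 5 fibroblast markers 2 had no read. Col1a1 had 214 reads in vehicle, 93 at 6 h and 52 at 12 h, and Pdgfra had 116, 41 and 44. The part of these shifts in the histone results was not tested. In bulk RNA, fewer cells of a type and less RNA per cell cannot be told apart.

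The Hist genes as a group were higher after PMA, and their reads were dominated by the H2B gene Hist1h2bh. Summed over all 24 Hist genes, the vehicle libraries held 91.9, 77.4 and 67.2 CPM, the 6 h libraries 280.4, 273 and 311 CPM, and the 12 h libraries 529, 538 and 496 CPM. The groups did not overlap, and the mean sum was 3.66-fold that of vehicle at 6 h and 6.60-fold at 12 h. Hist1h2bh held 64.9% to 70.5% of the Hist reads in vehicle, 76.1% to 77.9% at 6 h and 78.4% to 81.1% at 12 h. Without it, the other 23 genes summed to 22.9 to 27.1 CPM in vehicle, 62.1 to 72.4 CPM at 6 h and 102 to 107 CPM at 12 h. The 11 variants summed to 789, 846 and 952 CPM in vehicle, 1242, 1193 and 1155 CPM at 6 h and 868, 799 and 969 CPM at 12 h. The Hist share of all histone reads was therefore 6.60% to 10.4% in vehicle, 18.4% to 21.2% at 6 h and 33.9% to 40.2% at 12 h. These sums weigh reads, which longer transcripts yield more of, and compare groups but not genes.

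**Figure D1:**
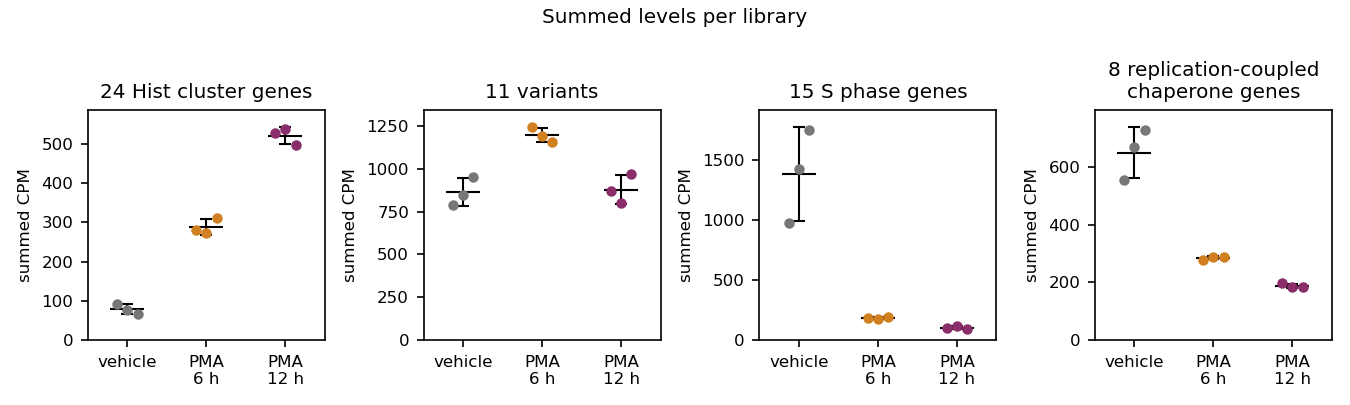
Summed CPM per library (vertical axes, linear, from 0) of the 24 Hist cluster genes, the 11 variants, 15 S phase genes and 8 replication-coupled chaperone genes, by group (horizontal axes). Points are libraries, long ticks are means and bars are SD over 3 libraries; the Hist sums lie between 67.2 and 91.9 CPM in vehicle and between 496 and 538 CPM at 12 h, while the S phase sums lie between 969.8 and 1745 CPM in vehicle and between 89.4 and 115 CPM at 12 h.

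The count filter (0.613 CPM of the unscaled totals in at least 3 libraries) kept 20 of the 35 members, 11 Hist genes and 9 variants. Between PMA at 6 h and vehicle, 8 of the 11 Hist genes tested were higher, 0 were lower and 3 did not pass (edgeR's quasi-likelihood test, Benjamini-Hochberg adjusted over 10128 genes, adjusted p under 0.05). Over all genes tested, 76.8% passed in that comparison, 37.8% higher and 39.0% lower. At 12 h 9 Hist genes were higher, 0 were lower and 2 did not pass, against 75.8% of all genes passing, 37.7% higher and 38.2% lower. The median log2 fold change of the Hist genes was 1.46 at 6 h and 2.68 at 12 h, where the median over all genes was -0.03 and -0.02. Of the 9 variants, 2 were higher and 2 lower at 6 h, and 3 were higher and 4 lower at 12 h, with medians of -0.05 and -0.08. Counted by libraries that did not overlap between groups, 7 Hist genes were higher at 6 h and 8 at 12 h, and of the variants 2 were higher and 2 lower at 6 h and 3 were higher and 3 lower at 12 h. Over all genes, groups did not overlap for 79.0% at 6 h (38.6% higher, 40.3% lower) and 78.7% at 12 h (38.7% higher, 40.0% lower). Both comparisons share the vehicle libraries. Some members passed the filter through their high groups alone: in vehicle Hist1h2bl exceeded it in 0 libraries and Hist1h2aa, Hist1h2an and H2afj in 1 each, Hist1h1b exceeded it only at 12 h, H2afy2 only in vehicle, and H1foo in vehicle and at 12 h but in 0 libraries at 6 h. For these, a difference between groups was built into being tested, and the counts over the tested members carry that selection.

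The direction of the Hist genes called at 6 h or 12 h was the same under every scaling tried, and that of some variants was not. Upper-quartile scaling moved the median gene by -0.26 (log2) at 6 h and -0.27 at 12 h, and leaving out the scaling moved it by -0.54 and -0.58, so changes are best read relative to the median gene. Upper-quartile scaling gave 3023 genes higher and 4837 lower over all genes at 6 h and 2963 higher and 4827 lower at 12 h, and no scaling gave 2277 and 5855 at 6 h and 2120 and 6021 at 12 h, against 3831 and 3945 at 6 h and 3818 and 3864 at 12 h in the values reported here. Without scaling, 5 Hist genes were still higher at 6 h and 8 at 12 h, and 0 were lower. Calls that ended without scaling were those of Hist1h1a and Hist1h2bl at 6 h and of Hist1h2ail1 and H2afj at both times. Calls gained at 6 h under upper-quartile scaling and without scaling were those of H1f0 (-0.31 and -0.59), H2afz (-0.55 and -0.84), H2afv (-0.58 and -0.86) and H2afy (-0.19 and -0.47), all lower, and H2afx was called lower without scaling at 6 h (-0.49) and 12 h (-0.66).

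**Figure D2:**
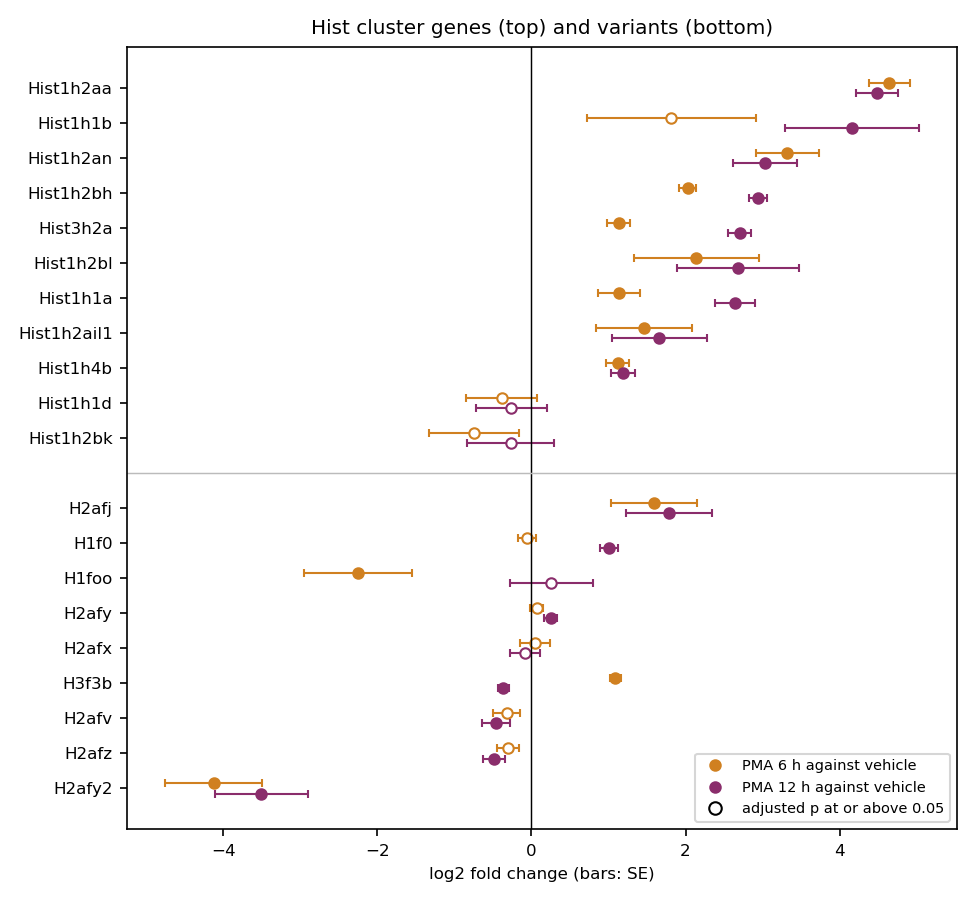
Log2 fold change against vehicle (horizontal axis) of the 20 tested histone genes, Hist cluster genes above the line and variants below it, for PMA at 6 h and at 12 h. Bars are SE and open points have an adjusted p of 0.05 or more; the Hist genes run to 4.64 for Hist1h2aa at 6 h, and the variants lie on both sides of 0.

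Hist1h2bh, one of many genes for canonical H2B, gave most of the Hist reads. It had 64.8, 54.6 and 43.7 CPM in vehicle, 218, 208 and 239 CPM at 6 h and 426, 436 and 389 CPM at 12 h. Each PMA library was above every vehicle library, and each 12 h library above every 6 h library. The change was 2.03 ± 0.11 (log2 fold change ± SE, n = 3 libraries each; adjusted p = 3.1e-10, edgeR's quasi-likelihood test) at 6 h and 2.94 ± 0.12 (adjusted p = 6.0e-12) at 12 h. The second H2B gene tested by mean level, Hist1h2bl, was near the limit of detection. It had 0.216, 0.301 and 0 CPM in vehicle, 0.623, 0.661 and 1.16 CPM at 6 h and 1.84, 0.218 and 1.56 CPM at 12 h, which are 12, 38 and 48 reads per group. The strand columns held 19 more reads than its 98 unstranded reads, which marks reads shared with a gene on the other strand, so its level is uncertain. It was higher at 6 h (2.14 ± 0.81, adjusted p = 0.023, edgeR's quasi-likelihood test) and at 12 h (2.68 ± 0.79, adjusted p = 0.0052). The 6 h call was lost without vehicle replicate 3 (1.64) or without PMA 6 h replicate 3 (1.77), and leaving out vehicle replicate 2 gave 2.73 at 6 h and 3.28 at 12 h. Hist1h2bk did not pass in either comparison, with 0.410 ± 0.113 CPM at 6 h, 0.582 ± 0.230 CPM at 12 h and 0.706 ± 0.290 CPM in vehicle (mean ± SD, n = 3 each).

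Hist3h2a, Hist1h2aa and Hist1h2an, tested H2A genes of the clusters, all rose. Hist3h2a, an H2A gene of the small Hist3 cluster on chromosome 10, had 8.29, 5.67 and 5.74 CPM in vehicle, 14.2, 15.4 and 13.8 CPM at 6 h and 41.9, 41.8 and 45.0 CPM at 12 h. Its groups did not overlap, and the step between 6 h and 12 h was larger than that between vehicle and 6 h. It changed by 1.13 ± 0.15 at 6 h (adjusted p = 2.4e-06, edgeR's quasi-likelihood test) and 2.70 ± 0.15 at 12 h (adjusted p = 2.7e-11). Hist1h2aa, whose mouse counterpart encodes the testis H2A, showed the largest change of the members: 0.345, 0.387 and 0.584 CPM in vehicle, 12.5, 10.5 and 9.94 CPM at 6 h and 11.0, 8.28 and 10.1 CPM at 12 h. It was low in all vehicle libraries and at a like level in all PMA libraries. The change was 4.64 ± 0.27 at 6 h (adjusted p = 4.6e-11, edgeR's quasi-likelihood test) and 4.48 ± 0.27 at 12 h (adjusted p = 9.0e-11), on 28 vehicle reads in all. Hist1h2an followed the same course, with a mean of 0.483 ± 0.143 CPM in vehicle, 4.91 ± 2.08 CPM at 6 h and 4.06 ± 1.40 CPM at 12 h (SD, n = 3 each). Its changes were 3.32 ± 0.41 (adjusted p = 1.1e-06) and 3.03 ± 0.42 (adjusted p = 4.2e-06).

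Hist1h2ail1 reads as an H2A gene by its symbol, but RefSeq lists "H3 histone" among its synonyms. From the first ATG after its RefSeq start, 31 of 33 bases equalled those of the H3 gene Hist2h3c2, and 15 of 33 those of the H2A gene Hist3h2a, so it is described apart from the H2A genes. It had 0.906, 0.516 and 0.319 CPM in vehicle, 1.94, 2.79 and 0.289 CPM at 6 h and 1.91, 2.40 and 1.30 CPM at 12 h, so 1 library at 6 h lay below every vehicle library. The changes were 1.46 ± 0.62 at 6 h (adjusted p = 0.042, edgeR's quasi-likelihood test) and 1.66 ± 0.62 at 12 h (adjusted p = 0.023). The 6 h call was lost without vehicle replicate 2 (1.37) or 3 (1.19), without PMA 6 h replicate 1 (1.32) or 2 (0.87), without PMA 12 h replicate 1 or 3 (1.46 each), in limma-voom (0.97) and under upper-quartile scaling (1.20). At 12 h it was lost without vehicle replicate 2 (1.57) or 3 (1.39), without PMA 12 h replicate 1 (1.65) or 2 (1.45) and under upper-quartile scaling (1.39).

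The start regions of clustered histone genes are known for a TATA box, CCAAT boxes and, in H2B genes, the octamer ATTTGCAT bound by Oct-1. PMA is known to act on many genes through AP-1, which is known for binding TGACTCA. The looser TGANTCA, with any base at N, was searched. The windows from 250 bases before to 50 bases after the start (RefSeq, build GRCr8) are given for the tested H2A genes with the most reads or the largest changes, with matches to any of these motifs on either strand in capitals. Hist3h2a (RefSeq symbol H2ac25) lies at chr10:44233033-44233332 on the plus strand, Hist1h2aa (H2ac1) at chr17:41599623-41599922 on the minus strand and Hist1h2an at chr17:41962441-41962740 on the plus strand.
Hist3h2a: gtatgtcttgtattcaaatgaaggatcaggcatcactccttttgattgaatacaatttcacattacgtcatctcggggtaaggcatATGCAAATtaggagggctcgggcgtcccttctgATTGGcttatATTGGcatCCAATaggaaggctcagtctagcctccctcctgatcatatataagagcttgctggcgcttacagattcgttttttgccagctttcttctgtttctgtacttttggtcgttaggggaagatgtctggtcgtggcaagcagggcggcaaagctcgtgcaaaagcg
Hist1h2aa: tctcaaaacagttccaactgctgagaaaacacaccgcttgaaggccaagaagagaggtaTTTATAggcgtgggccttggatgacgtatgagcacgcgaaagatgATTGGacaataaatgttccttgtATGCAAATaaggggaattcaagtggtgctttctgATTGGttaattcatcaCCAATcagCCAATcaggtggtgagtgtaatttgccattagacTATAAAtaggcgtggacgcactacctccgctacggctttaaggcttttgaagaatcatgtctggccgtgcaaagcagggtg
Hist1h2an: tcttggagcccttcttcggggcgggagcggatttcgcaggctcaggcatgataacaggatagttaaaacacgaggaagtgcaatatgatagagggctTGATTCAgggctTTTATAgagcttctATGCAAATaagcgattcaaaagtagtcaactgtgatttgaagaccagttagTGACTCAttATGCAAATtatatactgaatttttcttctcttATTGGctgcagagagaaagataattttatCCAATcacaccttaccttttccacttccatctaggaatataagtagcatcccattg
These windows show CCAAT in all of them (3, 4 and 2 matches), the octamer in all of them (1, 1 and 2 matches), TATAAA in Hist1h2aa and Hist1h2an, and TGANTCA in Hist1h2an alone (2 matches), with no match overlapping another. Of the TGANTCA matches 1 reads TGACTCA and 1 TGATTCA.

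Symbols of 32 members matched 1 RefSeq gene, and 31 had a window, 20 of Hist genes and 11 of variants. Hist1h2bh, Hist1h1d and Hist1h2bl each matched more than 1 gene, so no window is given for them. Among the 20 Hist windows, CCAAT was found in 18, TATAAA in 12 and ATTTGCAT in 8. Over all 33469 windows these shares were 37.5%, 14.2% and 1.78%. TGANTCA was found in 1 of the 20 Hist windows, in 0 of the 11 variant windows and in 7.33% of all windows. The variants held CCAAT in 7 windows, TATAAA in 3 and the octamer in 1. A match is only a run of letters, and windows overlap where genes are divergent: Hist3h2a shares 283 bases of its window with Hist3h2bb, and Hist1h2aa shares 261 bases with Hist1h2ba, the gene of the testis H2B in mouse. Within each of these pairs nearly all reads fell on 1 partner. Hist3h2bb had 0 reads and Hist1h2ba 7 reads over all 9 libraries, against 2796 for Hist3h2a and 915 for Hist1h2aa. Overlap was looked for only among the 31 windows. Read on the other strand, the first bases of the Hist1h2an window closely resemble the coding start of the H2B gene Hist1h2bd. Hist1h2an thus appears to share its window with an H2B gene that has none here, and matches in it can belong to either gene.

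Hist1h4b, one of many genes for the single H4 protein, was the only H4 gene that passed the filter. It had 13.8, 10.7 and 11.8 CPM in vehicle, 21.0, 25.3 and 32.5 CPM at 6 h and 27.6, 27.7 and 27.7 CPM at 12 h. All PMA libraries were above all vehicle libraries, and both PMA times overlapped. The changes were 1.12 ± 0.15 at 6 h (adjusted p = 3.2e-06, edgeR's quasi-likelihood test) and 1.19 ± 0.15 at 12 h (adjusted p = 1.7e-06).

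Of the linker histone genes in the clusters, Hist1h1a and Hist1h1b rose and Hist1h1d did not pass. Hist1h1a, which encodes H1.1, had 1.12, 1.93 and 2.44 CPM in vehicle, 4.36, 3.75 and 3.93 CPM at 6 h and 9.59, 12.9 and 11.6 CPM at 12 h, with no overlap between groups. It changed by 1.14 ± 0.27 at 6 h (adjusted p = 0.0011, edgeR's quasi-likelihood test) and 2.64 ± 0.26 at 12 h (adjusted p = 7.2e-08). Hist1h1b, which encodes H1.5, had 4 reads over the vehicle libraries, 11 at 6 h and 50 at 12 h. It was at 1.70, 0.944 and 1.04 CPM at 12 h, against 0.0432, 0 and 0.159 CPM in vehicle, and 9 of the 11 reads at 6 h were in replicate 3. The 12 h change was 4.16 ± 0.87 (adjusted p = 0.00033, edgeR's quasi-likelihood test), 3.57 without vehicle replicate 2 and 5.42 without vehicle replicate 3, and the 6 h change of 1.82 ± 1.10 did not pass (adjusted p = 0.14). Hist1h1d, an H1 gene by its symbol, had 0.906, 1.33 and 0.850 CPM in vehicle, 0.830, 0.661 and 0.867 CPM at 6 h and 0.612, 0.799 and 1.21 CPM at 12 h. Its groups overlapped throughout, with changes of -0.39 ± 0.46 (adjusted p = 0.45) and -0.26 ± 0.46 (adjusted p = 0.62).

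**Figure D3:**
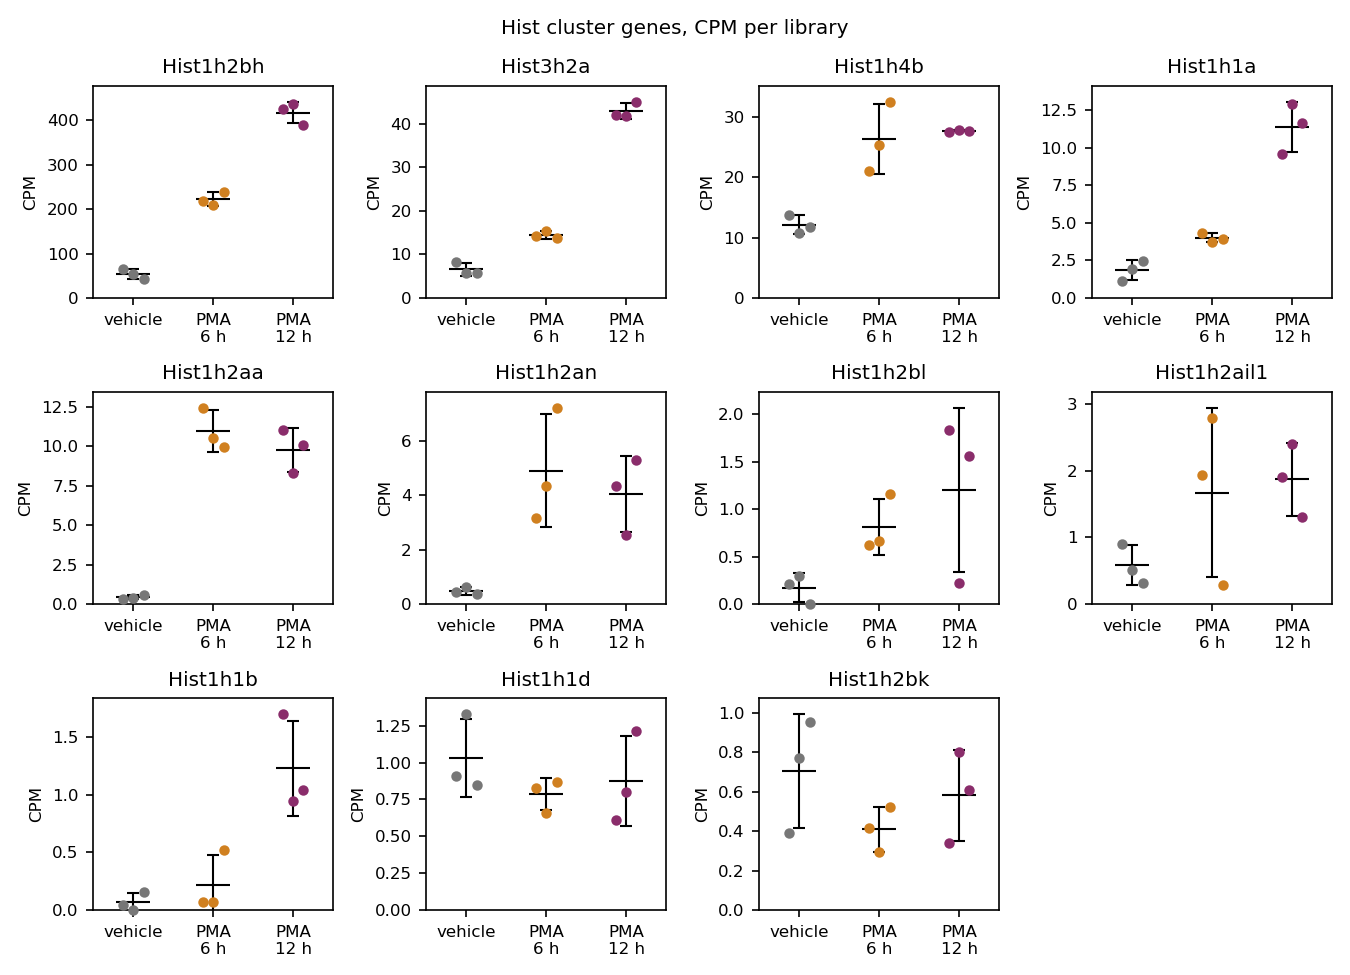
CPM per library (vertical axes, linear, from 0) of the 11 tested Hist cluster genes by group (horizontal axes). Points are libraries, long ticks are means and bars are SD over 3 libraries, drawn only down to 0; Hist1h2bh, Hist3h2a and Hist1h1a step up at 6 h and again at 12 h, whereas Hist1h2aa, Hist1h2an and Hist1h4b are at like levels at 6 h and 12 h.

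The other 13 Hist genes had too few reads to test. Hist3h2bb and Hist1h2ak had 0 reads in all 9 libraries. The rest had between 6 and 50 reads over all libraries: Hist1h2af (50), Hist1h2bd (34), Hist1h2bo (30), Hist1h1t (26), Hist3h2ba (24), Hist2h4 (17), Hist2h3c2 (12), Hist1h2ba, Hist1h4m and Hist2h2ab (7 each) and Hist3h3 (6). Both Hist genes with an H3 symbol, Hist2h3c2 and Hist3h3, were among them, so of the clustered H3 genes at most Hist1h2ail1 was tested. Without the count filter, 3 of the 13 passed at 6 h or 12 h. Over all genes, 7947 passed at 6 h without the filter and 7776 with it. The share passing among all genes under the filter was not computed. Hist1h1t, the testis linker histone, had 13 reads at 6 h and 13 at 12 h against 0 in vehicle (adjusted p = 0.010 at 6 h and 0.0088 at 12 h, edgeR's quasi-likelihood test without the filter), but 11 of the 13 at 6 h were in 1 library. Hist1h2bd had 16 reads at 6 h and 15 at 12 h against 3 in vehicle (adjusted p = 0.047 at each time), and Hist1h2af had 27 reads at 12 h against 8 in vehicle (adjusted p = 0.035).

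Among the variants, the H3.3 gene H3f3b rose at 6 h and was below vehicle at 12 h. H3.3 is the H3 that cells place in chromatin outside replication, at transcribed genes by HIRA and at heterochromatin by DAXX and ATRX. H3f3b had 311, 304 and 340.3 CPM in vehicle, 713, 661 and 655 CPM at 6 h and 249.6, 239 and 253 CPM at 12 h. None of the 3 groups overlapped with another. The change was 1.09 ± 0.07 at 6 h (2.12-fold; adjusted p = 3.1e-10, edgeR's quasi-likelihood test) and -0.37 ± 0.07 at 12 h (adjusted p = 0.00020). Both directions held under every scaling tried, with 0.55 and -0.95 where libraries were not scaled. Its start region at chr10:101757587-101757886 on the minus strand (RefSeq, GRCr8) is shown because the gene ran against the Hist genes at 12 h, with matches to the same motifs in capitals.
H3f3b: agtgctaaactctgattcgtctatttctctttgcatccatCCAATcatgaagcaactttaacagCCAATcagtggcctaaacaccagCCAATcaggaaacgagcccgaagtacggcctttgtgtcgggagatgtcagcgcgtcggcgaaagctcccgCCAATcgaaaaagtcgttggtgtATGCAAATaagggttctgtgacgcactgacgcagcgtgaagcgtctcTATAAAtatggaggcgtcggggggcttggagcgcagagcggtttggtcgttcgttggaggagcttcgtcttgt
The window holds 4 matches to CCAAT, 1 to TATAAA, 1 to ATTTGCAT and 0 to TGANTCA, and it was the only variant window with the octamer.

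The linker variant H1f0 encodes H1.0, known for accumulating in cells that stop dividing and differentiate. It had 91.3, 89.2 and 96.5 CPM in vehicle, 88.6, 87.3 and 90.8 CPM at 6 h and 184, 147 and 226 CPM at 12 h. The 12 h libraries stood above all others and were spread among themselves, and the 6 h libraries overlapped with vehicle. The change was -0.05 ± 0.12 at 6 h (adjusted p = 0.68, edgeR's quasi-likelihood test) and 1.01 ± 0.12 at 12 h (adjusted p = 1.3e-06). H1foo, the oocyte linker histone, had only 107 reads over all libraries, at 0.691, 0.988 and 0.956 CPM in vehicle, 0.346, 0.220 and 0 CPM at 6 h and 1.29, 0.726 and 1.13 CPM at 12 h. It was lower at 6 h in 3 of 3 libraries (-2.25 ± 0.70, adjusted p = 0.0078), with -3.06 without PMA 6 h replicate 1 and -1.61 without replicate 3, and did not pass at 12 h (0.26 ± 0.54, adjusted p = 0.68). H1fnt, the linker histone of male germ cells, had 0 reads.

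Among the H2A variants, the macroH2A gene H2afy2 showed the largest change. MacroH2A carries a large extra domain and is enriched on silent chromatin. H2afy2 had 2.20, 1.80 and 2.18 CPM in vehicle, 0.208, 0.147 and 0 CPM at 6 h and 0.204, 0.145 and 0.173 CPM at 12 h, which are 134, 5 and 7 reads per group. All PMA libraries lay far below all vehicle libraries. The changes were -4.12 ± 0.63 at 6 h (adjusted p = 1.3e-05, edgeR's quasi-likelihood test) and -3.50 ± 0.60 at 12 h (adjusted p = 4.6e-05), with -4.83 at 6 h without PMA 6 h replicate 1 and -3.49 without replicate 3. The strand columns together held 77 more reads for this gene than its 146 unstranded reads, which marks reads shared with a gene on the other strand, so its level is uncertain. The other macroH2A gene, H2afy, had 225, 232 and 239 CPM in vehicle, 243, 251 and 237 CPM at 6 h and 267, 247 and 316 CPM at 12 h. It passed at 12 h only (0.25 ± 0.08, adjusted p = 0.011), lost that call without PMA 12 h replicate 3 (0.15), and turned to -0.017 under upper-quartile scaling and -0.33 without scaling, which passed as lower (adjusted p = 0.00080). At 6 h its value of 0.07 ± 0.08 did not pass (adjusted p = 0.45) and became -0.19 (adjusted p = 0.045) and -0.47 (adjusted p = 2.4e-05) under those scalings, both called lower.

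H2afz and H2afv encode the H2A.Z proteins, which flank the starts of active genes, and H2afx encodes H2A.X, phosphorylated at DNA breaks. H2afz had 107, 150.3 and 177 CPM in vehicle, 123, 119 and 110.4 CPM at 6 h and 105, 104 and 102 CPM at 12 h. It was lower at 12 h (-0.48 ± 0.14, adjusted p = 0.0089, edgeR's quasi-likelihood test), with the 12 h libraries just below the lowest vehicle library. At 6 h it did not pass (-0.30 ± 0.14, adjusted p = 0.071), though it did with DESeq2 (-0.30) and without vehicle replicate 1 (-0.48). H2afv overlapped between groups, with 15.9 ± 1.16 CPM at 6 h, 14.5 ± 1.59 CPM at 12 h and 19.9 ± 5.92 CPM in vehicle (SD, n = 3 each). Its 12 h change of -0.46 ± 0.18 (adjusted p = 0.029) was lost without vehicle replicate 3 (-0.21), without PMA 12 h replicate 1 (-0.48) or 2 (-0.37) and in limma-voom (-0.41). H2afx did not pass at either time under TMM scaling, with 52.9 ± 6.53 CPM at 6 h, 48.3 ± 4.16 CPM at 12 h and 51.2 ± 16.1 CPM in vehicle, and its 6 h value of 0.05 ± 0.20 turned to -0.49 without scaling, which passed as lower (adjusted p = 0.028), as did its 12 h value of -0.66 (adjusted p = 0.0058). The vehicle library with the lowest summed S phase genes (replicate 1, 969.8 CPM) also had the lowest H2afz, H2afv and H2afx (36.3 CPM) and the highest Hist1h2bh, and the one with the highest S phase sum (replicate 3, 1745 CPM) had the highest H2afz, H2afv and H2afx (68.2 CPM) and the lowest Hist1h2bh. Other Hist genes did not all follow the order of Hist1h2bh. Hist1h1a rose with the S phase sum, at 1.12, 1.93 and 2.44 CPM in vehicle replicates 1 to 3. The 23 Hist genes other than Hist1h2bh summed to 27.1, 22.9 and 23.6 CPM in these replicates. The part of these differences between vehicle libraries in the results was not tested.

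H2afj, whose protein H2A.J accumulates in senescent human fibroblasts, was higher at both times on low counts. It had 0.388, 0.215 and 0.478 CPM in vehicle, 1.31, 0.514 and 1.39 CPM at 6 h and 0.953, 1.02 and 1.82 CPM at 12 h. No PMA library overlapped with vehicle, although 1 library at 6 h was close to it. The changes were 1.59 ± 0.56 (adjusted p = 0.015, edgeR's quasi-likelihood test) and 1.79 ± 0.56 (adjusted p = 0.0078). The 6 h call was lost without vehicle replicate 2 (1.31) or PMA 6 h replicate 1 (1.44) or 3 (1.34), and the 12 h call without PMA 12 h replicate 3 (1.45). H2afb3 had 0 reads.

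**Figure D4:**
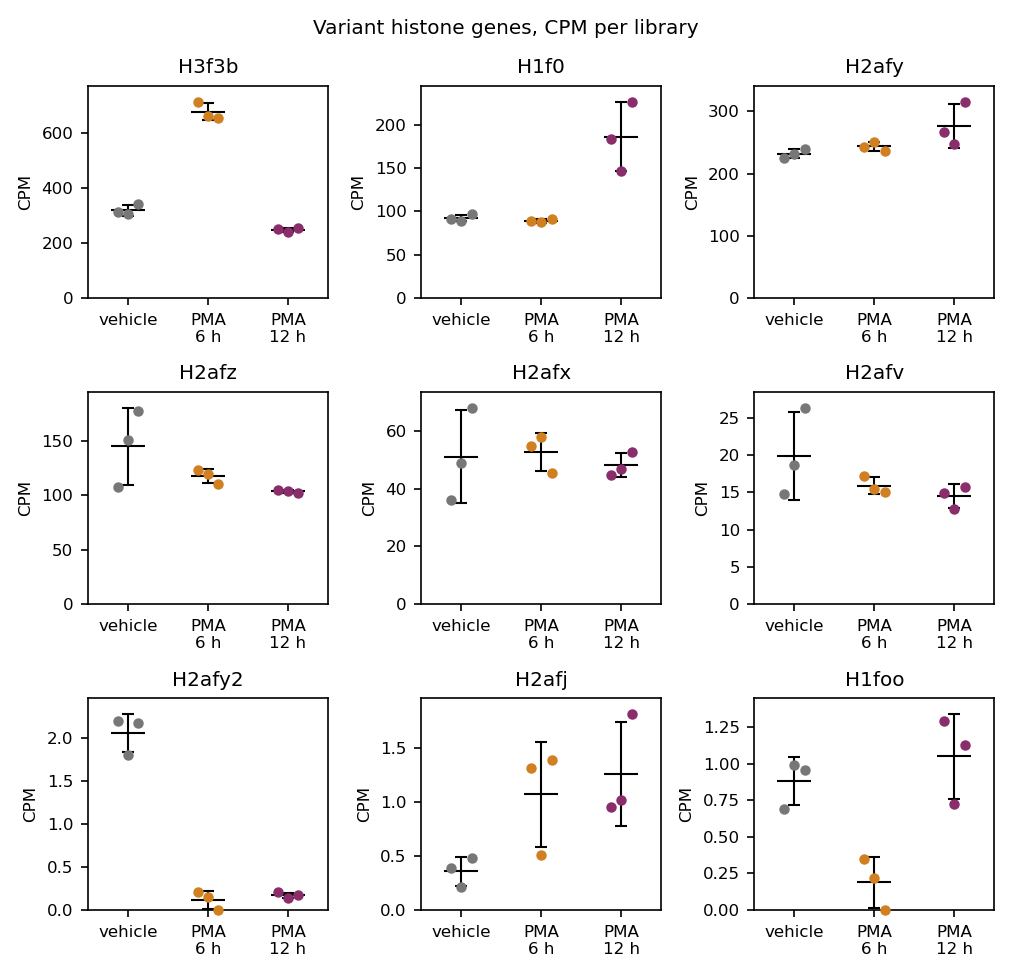
CPM per library (vertical axes, linear, from 0) of the 9 tested variant genes by group (horizontal axes). Points are libraries, long ticks are means and bars are SD over 3 libraries, drawn only down to 0; H3f3b is at 655 to 713 CPM at 6 h and at 239 to 253 CPM at 12 h, H1f0 reaches 147 to 226 CPM only at 12 h, and H2afy2 is near 0 in the PMA libraries.

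Between 12 h and 6 h of PMA, 4 of the 11 tested Hist genes were higher and 0 lower, and of the 9 variants 2 were higher and 1 lower, where 51.1% of all genes passed, 25.3% higher and 25.8% lower. By groups that did not overlap, 4 Hist genes were higher and 0 lower and the variants were 2 and 2, against 58.0% of all genes, 28.5% higher and 29.6% lower. The Hist genes that rose further were Hist3h2a (1.57 ± 0.14, adjusted p = 1.3e-07, edgeR's quasi-likelihood test), Hist1h1a (1.50 ± 0.25, adjusted p = 9.0e-05), Hist1h2bh (0.91 ± 0.11, adjusted p = 7.1e-06) and Hist1h1b (2.35 ± 0.75, adjusted p = 0.014). The call for Hist1h1b was lost without PMA 6 h replicate 1 (1.95) or 2 (1.98) or PMA 12 h replicate 1 (2.04), and the value was 3.99 without PMA 6 h replicate 3. Hist1h2aa (-0.16 ± 0.20), Hist1h2an (-0.29 ± 0.34) and Hist1h4b (0.07 ± 0.15) did not pass. Among the variants H3f3b fell (-1.45 ± 0.07, adjusted p = 2.1e-10), H1f0 rose (1.06 ± 0.12, adjusted p = 3.1e-06) and H1foo was higher (2.50 ± 0.72, adjusted p = 0.0075), with 3.32 without PMA 6 h replicate 1 and 1.86 without replicate 3. The medians of the Hist genes (0.47) and variants (0.18) stood beside 0.01 over all genes.

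Genes that serve histone supply outside the rule were read from lists. S phase genes, which encode the replication machinery and its nucleotide supply, were lower in 15 of 15 at 6 h and in 15 of 15 at 12 h, where 39.0% and 38.2% of all genes were lower. Summed over the list, the 6 h libraries held 172 to 189 CPM and the 12 h libraries 89.4 to 115 CPM, against 969.8 to 1745 CPM in vehicle. The largest changes at either time were those of Cdc45, Rrm2, Prim1 and Mcm3, by -6.03, -5.99, -5.12 and -4.25 at 6 h and by -5.77, -4.84, -5.31 and -5.11 at 12 h. Hist1h2bh and Hist3h2a thus had their highest levels in the group with the lowest S phase sums. The part of S phase in the Hist levels was not tested.

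The replication-coupled chaperones, which carry new H3 and H4 to the fork, were lower in 7 of 8 tested genes at 6 h and in 8 of 8 at 12 h (10 listed). Over all genes, 39.0% were lower at 6 h and 38.2% at 12 h. Chaf1b, a subunit of CAF-1, changed by -4.52 at 6 h and -5.87 at 12 h, Tonsl by -2.36 and -3.30, and Mcm2, a helicase subunit that also binds H3 and H4, by -2.61 and -3.13. Asf1b had 4 reads at 6 h and 11 at 12 h, against 1962 in vehicle. The exception at 6 h was Rbbp4, which was higher (0.28, adjusted p = 0.043, edgeR's quasi-likelihood test) but did not pass under upper-quartile scaling, without scaling, with the replicate block or without any of 5 single libraries (vehicle 1 or 2, PMA 6 h 1 or 2, PMA 12 h 1). Cenpa, the centromeric H3 variant whose symbol lies outside the rule, had 15 reads at 6 h and 0 at 12 h, against 241 in vehicle. It was at least 49.2-fold lower at 12 h, taking 3 counts over the group as the floor. Its chaperone Hjurp changed by -4.37 at 6 h and -5.86 at 12 h.

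The factors for histone gene transcription and 3′ processing were lower in 6 of 12 tested genes at 6 h and 8 of 12 at 12 h, and higher in 2 and 1 (17 listed), where 39.0% and 38.2% of all genes were lower and 37.8% and 37.7% higher. Slbp, the stem-loop binding protein, had 66.7, 59.7 and 61.0 CPM at 6 h and 32.9, 28.8 and 25.4 CPM at 12 h, against 56.0, 74.4 and 93.1 CPM in vehicle. It did not pass at 6 h (-0.25, adjusted p = 0.15, edgeR's quasi-likelihood test) and fell at 12 h (-1.35, adjusted p = 4.4e-06). Cpsf3, the endonuclease of the 3′ end, changed by -1.44 at 6 h and -1.18 at 12 h, and Casp8ap2, a component of the histone locus body, by -1.07 and -2.00. Pou2f1, which encodes Oct-1, the factor known to bind the octamer of H2B promoters, rose: 19.6, 13.9 and 22.6 CPM at 6 h and 31.6, 34.1 and 31.0 CPM at 12 h, against 3.11, 1.93 and 2.60 CPM in vehicle. The changes were 2.88 (adjusted p = 5.6e-10, edgeR's quasi-likelihood test) and 3.66 (adjusted p = 2.4e-11).

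The chaperones and exchange factors of variants split both ways, with 7 of 15 tested genes higher and 8 lower at 6 h, and 4 higher, 7 lower and 4 not passing at 12 h (17 listed), a split near that of all genes (37.8% higher and 39.0% lower at 6 h, 37.7% and 38.2% at 12 h). Ubn2, a partner of HIRA in placing H3.3, rose by 1.43 at 6 h and 0.71 at 12 h. Ruvbl1 and Ruvbl2, the helicases of the H2A.Z exchange complexes, changed by -1.49 and -1.44 at 6 h and by -1.38 and -1.86 at 12 h. Without scaling, 4 of the 15 were higher at 6 h, and 1 was higher and 11 were lower at 12 h. Of the 8 tested general chaperones (9 listed), 4 were higher and 4 lower at 6 h, and 1 was higher and 5 were lower at 12 h, and the 6 h split is also near that of all genes. Supt16h and Ssrp1, the subunits of FACT, changed by -0.67 and -0.70 at 6 h and by -1.31 and -0.90 at 12 h, and Supt6h, which reassembles nucleosomes behind RNA polymerase, rose by 0.88 and 0.37. Under upper-quartile scaling 2 general chaperones were higher at 6 h and 0 at 12 h, and without scaling 1 and 0, with 8 lower at 12 h.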

How the data were processed

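RNA-seq was analysed from 9 libraries, 3 each of vehicle, PMA 6 h and PMA 12 h, grouped by sample titles. The deposited tables hold unnormalised counts per gene, which per the submitters' processing notes and the file layout come from STAR 2.7.5b on the rn6 genome; the sources used here do not name their annotation. Reads mapped to several places or falling on overlapping genes were counted apart, and 4 such summary lines were left out. The unstranded column was used (each strand held 49.8% to 50.3% of the strand counts). A deposited normalised table was not used.

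Counts were fitted in R 4.3.3 with edgeR 4.0.16 (TMM, filterByExpr at 10 counts, robust quasi-likelihood F test, group as the only term, all 9 libraries), adjusted by Benjamini-Hochberg over 10128 of 17315 genes and called at 0.05. The SE given with a log2 fold change is its absolute value divided by the square root of F. It therefore draws on the spread fitted over all 9 libraries, not on the 3 libraries of a group alone. TMM factors were 1.28 to 1.31 in vehicle, 0.879 to 0.911 at 6 h and 0.848 to 0.880 at 12 h. The script was tested on simulated data. Alternatives were RLE, upper-quartile and no scaling, no count filter, DESeq2 1.42.0, limma-voom (limma 3.58.1), the replicate number as a block, and leaving out each library. Replicates differed beyond counting error (chi-square per degree of freedom 3.88 to 27.8).

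All tested members are named, with levels per library for the top 2 of each class and the largest changes; listed genes that are no members are named by largest change, up to 4 per list, and Rbbp4 and Cenpa were named after their values were seen. Members and lists were chosen with earlier results of these data known.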

Additional observations from a re-analysis of the deposited data

Results flagged for a closer look

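Levels in PMA differed between 12 h and 6 h for 7 of the 20 tested histone genes, by the direct comparison of 12 h with 6 h (edgeR's quasi-likelihood test, Benjamini-Hochberg adjusted p under 0.05). Over all genes tested, 51.1% passed in that comparison, 25.3% higher and 25.8% lower. The log2 differences, 12 h minus 6 h, were 1.57 for Hist3h2a, 1.50 for Hist1h1a, 0.91 for Hist1h2bh, 2.35 for Hist1h1b, 2.50 for H1foo, 1.06 for H1f0 and -1.45 for H3f3b. In 3 of 3 libraries at 12 h each of these 7 genes lay beyond every 6 h library, in the direction of its difference. Over all genes tested, 58.0% had no overlap between these 2 groups. H3f3b was also above vehicle at 6 h and below it at 12 h, and H1foo was below vehicle at 6 h alone. No vehicle library at 6 h or 12 h was used, so PMA and time in culture cannot be told apart in these differences. Hist1h1b passed the count filter only through 12 h and H1foo only through vehicle and 12 h, so a difference from 6 h was built into their being tested. Groups of 3 libraries were too small to look for single outlying libraries.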

How the results depend on the processing

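Hist genes called lower numbered 0 in the 3 comparisons under every alternative. Without scaling, 5 Hist genes were higher at 6 h, and variants were 1 higher and 7 lower at 6 h and 1 higher at 12 h. All genes were then 2277 higher and 5855 lower at 6 h and 2120 higher and 6021 lower at 12 h. Upper-quartile scaling gave 6 variants lower at 6 h, and 4837 of all genes. Reversed values were those of H2afy (-0.19 at 6 h and -0.017 at 12 h under upper-quartile scaling, -0.47 and -0.33 without scaling) and H2afx (-0.49 at 6 h without scaling). These follow the shift of the median gene by the scaling. Leaving out single libraries gave 6 to 8 Hist genes higher, 1 to 2 variants higher and 2 to 4 lower at 6 h, and 8 to 10 Hist genes and 1 to 3 variants higher at 12 h. Over all genes it gave 3624 to 3881 higher and 3725 to 3987 lower at 6 h, and 3635 to 3846 higher at 12 h. Of the other alternatives' single-gene values, 397 kept their call or lack of one, 8 gained a call, 10 lost it and 5 were the reversed values above. Values without a call could change direction and still count as kept, as H1foo did at 12 h (0.26, and -0.32 without scaling). By the same count, leaving out single libraries kept 514, gained 3 and lost 23. With the replicate number as a block, 12, 16 and 7 members were called at 6 h, 12 h and 12 h against 6 h, the same counts as without it. Over all genes, 7650, 7539 and 4955 of 10128 were then called. Libraries of the same number correlated at -0.115 to 0.0270 in their deviations (9 pairs), and those of different numbers at -0.0724 to 0.0875 (18 pairs). No pairing by number was seen in these values, which cannot exclude a shared culture or batch. The list counts were recomputed under these alternatives after the data were seen. Depth limits genes under 0.613 CPM.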
